A study of Mus musculus with 35 samples.

Results

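Macrophage scavenger receptors were followed through 10 genes chosen by name: Mrc1, Clec10a, Msr1, Marco, Cd36, Scarb1, Cd68, Stab1, Mertk and Axl. All 10 were present among the 53379 genes of the count table and were matched by their Ensembl identifiers. T110299 pancreatic cancer cells, a mouse line, were grown in the pancreas of C57BL/6 mice (female and age-matched, as the study's methods state). On days 18 and 20 after tumor induction, 4 mice received i.v. injections of poly(I:C)c, which is 50 µg poly(I:C) complexed with the carrier polyethylenimine. The 4 control mice are called untreated. The study's methods give glucose as the control treatment, while its results describe the sequenced control mice as left untreated. PMN-MDSC (CD11b+Ly6CloLy6G+) and M-MDSC (CD11b+Ly6ChiLy6G-), the granulocytic and the monocytic myeloid-derived suppressor cells, were enriched for CD11b and sorted from spleen and tumor, and 4 untreated tumors were lysed whole as bulk tumor. All groups therefore came from mice bearing the same tumor line, all sorted cells carried CD11b, and no library came from a tumor-free mouse. The 34 libraries used comprised 4 of each untreated group and of bulk tumor, 4 each of poly(I:C)c tumor PMN-MDSC and spleen M-MDSC, and 3 each of poly(I:C)c spleen PMN-MDSC and tumor M-MDSC.

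Scavenger receptors are the proteins with which macrophages bind and internalize modified lipoproteins, sugar-bearing glycoproteins, polyanionic microbial surfaces and dying cells. They belong to unrelated families, among them C-type lectins, the collagen-like class A receptors, the class B receptors for lipoproteins and fatty acids, the stabilins, and the receptor tyrosine kinases Mertk and Axl, which reach phosphatidylserine on apoptotic cells through the bridging proteins Gas6 and protein S. In tumors several of them serve as marks of tissue-resident or tumor-associated macrophages, whereas circulating neutrophils and monocytes carry little of most of them.

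The sorted-cell libraries held 793070 to 4357105 gene-assigned counts and the bulk tumors 3771590 to 8886115. Levels below are CPM (counts scaled to a common library size), scaled by TMM (trimmed mean of M-values), and 3 counts corresponded to 0.317 to 3.67 CPM depending on the library, which was taken as the detection floor. The labelled cell types were checked against marker genes. Ly6g, which encodes the antigen used to sort PMN-MDSC, reached 36.7 to 97.0 CPM in untreated and 331 to 466.4 CPM in poly(I:C)c spleen PMN-MDSC. In untreated tumor PMN-MDSC it lay at 0, 1.56, 9.19 and 0.924 CPM, and in poly(I:C)c tumor PMN-MDSC at 10.2, 26.5, 4.98 and 84.7 CPM. Untreated and treated libraries were apart for Ly6g in spleen and overlapped in tumor, and its part in the treatment comparisons was not tested. The untreated tumor PMN-MDSC libraries held the macrophage genes C1qa (486 to 612 CPM) and Apoe (6631 to 9895 CPM) above their levels in untreated tumor M-MDSC (128 to 330 and 1817 to 6056 CPM). The sorting label "tumor PMN-MDSC" is kept below, but the untreated libraries so labelled were near 0 for their defining marker. 2 libraries stood apart in the macrophage marker sum. Poly(I:C)c tumor M-MDSC library 2 had 28837 CPM over 10 macrophage markers, C1qa at 2101 CPM and the monocyte gene Ly6c2 at 2.86 CPM against 602 and 418 CPM in its group. Untreated spleen PMN-MDSC library 1 had the highest marker sum of its group, 2102 CPM, and the chemokine receptor gene Ccr2 at 235 CPM against 37.7 to 70.3 CPM. Values without either library are given beside the called results below whose call it ended or whose fold it moved by over 1.5 times. In all sorted bulk libraries fewer cells of a type and less RNA per cell cannot be told apart.

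**Figure D1:**
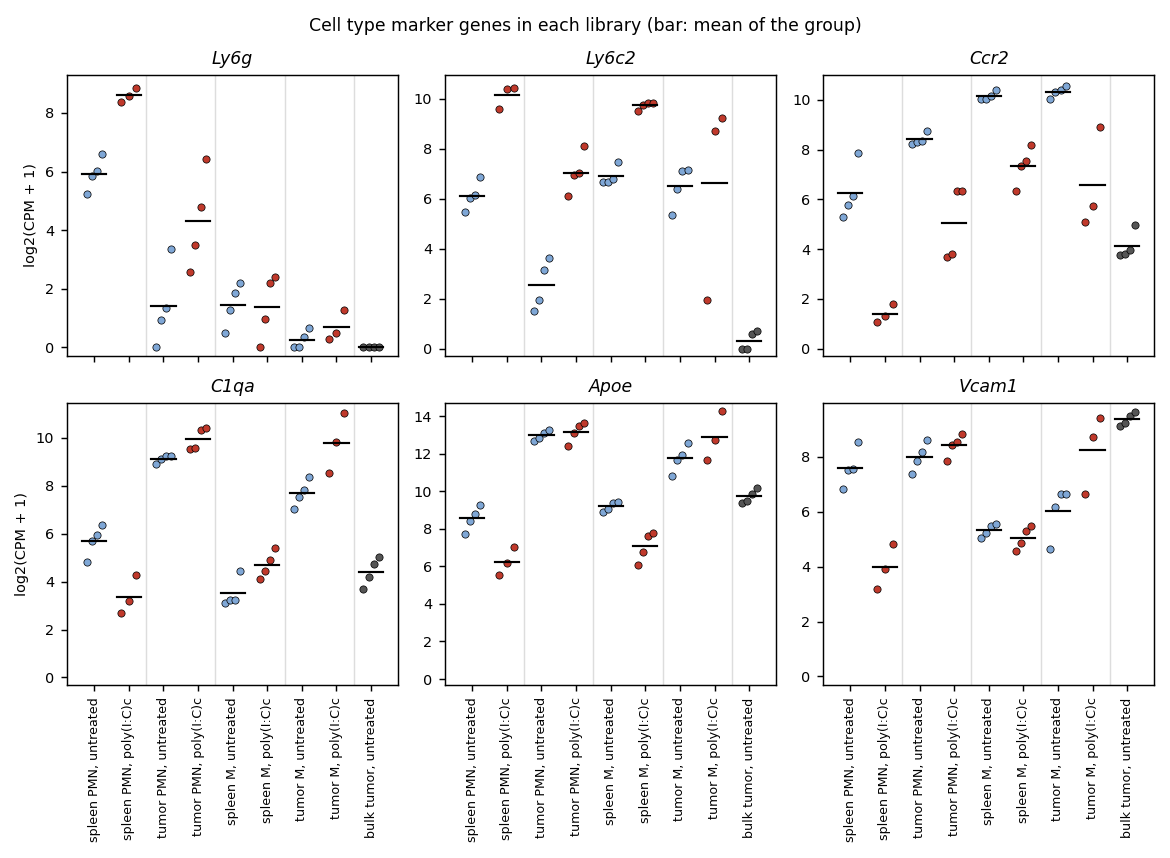
Levels of 6 cell type marker genes, as log2(CPM + 1), with 1 point per library and a bar at the group mean; blue is untreated, red poly(I:C)c and grey bulk tumor. Ly6g is high in spleen PMN-MDSC and at most 9.19 CPM in untreated tumor PMN-MDSC, where C1qa and Apoe are high, and 1 poly(I:C)c tumor M-MDSC library is low for Ly6c2.

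All 10 genes are annotated as protein coding on GRCm38. The C-type lectin genes are Mrc1 at chr2:14229392-14332057 (plus strand) and Clec10a at chr11:70156197-70170834 (plus strand). The class A genes are Msr1 at chr8:39581685-39642673 and Marco at chr1:120474538-120505024, both on the minus strand. The class B genes are Cd36 at chr5:17781690-17888801 and Scarb1 at chr5:125277087-125341094, also on the minus strand. Cd68 lies at chr11:69664213-69666153 and Stab1 at chr14:31139013-31168641 on the minus strand, Mertk at chr2:128698956-128802894 on the plus strand and Axl at chr7:25757273-25788705 on the minus strand. Counting used strand, and 3 members overlap another gene on their own strand (Mrc1 with Mir511, Mertk with Gm23172 and Scarb1 with Gm42633), so reads in the shared stretch could be lost to or split with that gene.

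RefSeq promoters on GRCm38.p6, from 250 bases before to 50 bases after the start, were found for 7 of the 10 genes (not for Msr1, Clec10a and Scarb1). They were searched on both strands for 3 motifs. The first was GAGGAA, a longer form of the core GGAA of the ETS family, to which the myeloid factor PU.1 belongs. It is called the ETS core below, and other forms of ETS sites were not searched. The others were the interferon-stimulated response element (2 GAAA repeats with 2 bases between) and the gamma-activated sequence TTCNNNGAA. The ETS core was found in 5 of 7 member promoters (Mrc1, Marco, Cd68, Stab1 and Axl) and in 28.3% of 32851 mouse promoters of the same length. Neither interferon-related motif occurred in any of the 7, against 3.44% and 8.30% of all promoters. No found motif overlapped another. The 4 shown are those with an ETS core that belong to genes called in a treatment comparison below: Mrc1 (chr2:14229164-14229463, plus strand), Marco (chr1:120504975-120505274, minus strand), Stab1 (chr14:31168592-31168891, minus strand) and Axl (chr7:25788684-25788983, minus strand). Each reads 5′ to 3′ on the strand of its gene, with the ETS core or its complement TTCCTC in capitals. Mrc1 holds 3 of them and the other genes shown 1 each, and Mertk, also called below, holds no GAGGAA or TTCCTC in this window.
Mrc1: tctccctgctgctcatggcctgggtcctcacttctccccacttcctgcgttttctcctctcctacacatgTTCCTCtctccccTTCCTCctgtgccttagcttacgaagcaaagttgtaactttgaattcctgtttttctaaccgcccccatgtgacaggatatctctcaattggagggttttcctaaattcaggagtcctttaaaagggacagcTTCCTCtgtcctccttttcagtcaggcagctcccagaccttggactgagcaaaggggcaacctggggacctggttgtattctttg
Marco: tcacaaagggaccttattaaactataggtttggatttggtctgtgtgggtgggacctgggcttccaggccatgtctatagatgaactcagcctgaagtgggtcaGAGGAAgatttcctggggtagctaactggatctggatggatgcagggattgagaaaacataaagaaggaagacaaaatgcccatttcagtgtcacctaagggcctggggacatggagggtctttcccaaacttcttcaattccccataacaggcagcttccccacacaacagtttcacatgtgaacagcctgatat
Stab1: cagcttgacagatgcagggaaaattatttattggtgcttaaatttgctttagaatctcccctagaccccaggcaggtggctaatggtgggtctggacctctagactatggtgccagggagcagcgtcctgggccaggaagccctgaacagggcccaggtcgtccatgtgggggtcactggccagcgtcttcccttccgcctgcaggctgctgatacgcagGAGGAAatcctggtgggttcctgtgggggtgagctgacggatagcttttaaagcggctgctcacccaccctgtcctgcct
Axl: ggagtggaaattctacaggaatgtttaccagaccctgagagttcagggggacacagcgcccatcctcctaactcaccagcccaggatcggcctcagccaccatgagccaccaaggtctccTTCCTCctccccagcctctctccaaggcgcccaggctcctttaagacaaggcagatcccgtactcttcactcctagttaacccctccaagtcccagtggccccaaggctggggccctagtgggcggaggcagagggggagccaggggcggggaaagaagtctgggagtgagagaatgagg

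Levels were first set between the genes per kilobase of exon, since these genes differ in length. In untreated tumor PMN-MDSC the highest were Mrc1, at 159 CPM per kilobase, and Cd68, at 155 CPM per kilobase, followed by Axl (87.3), Stab1 (54.3), Msr1 (30.1) and Mertk (27.4). Clec10a (7.78), Marco (5.05), Scarb1 (4.64) and Cd36 (2.03) were the lowest in that group. In untreated spleen M-MDSC the order was another: Cd68 led at 118 CPM per kilobase, Scarb1 followed at 30.6, and Stab1 was last at 0.177. Cd68 was the highest member per kilobase in 7 of the 9 groups, untreated tumor PMN-MDSC and bulk tumor excepted. In bulk tumor Axl led at 27.4 CPM per kilobase, ahead of Mrc1 at 12.6 and Cd68 at 4.37.

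**Figure D2:**
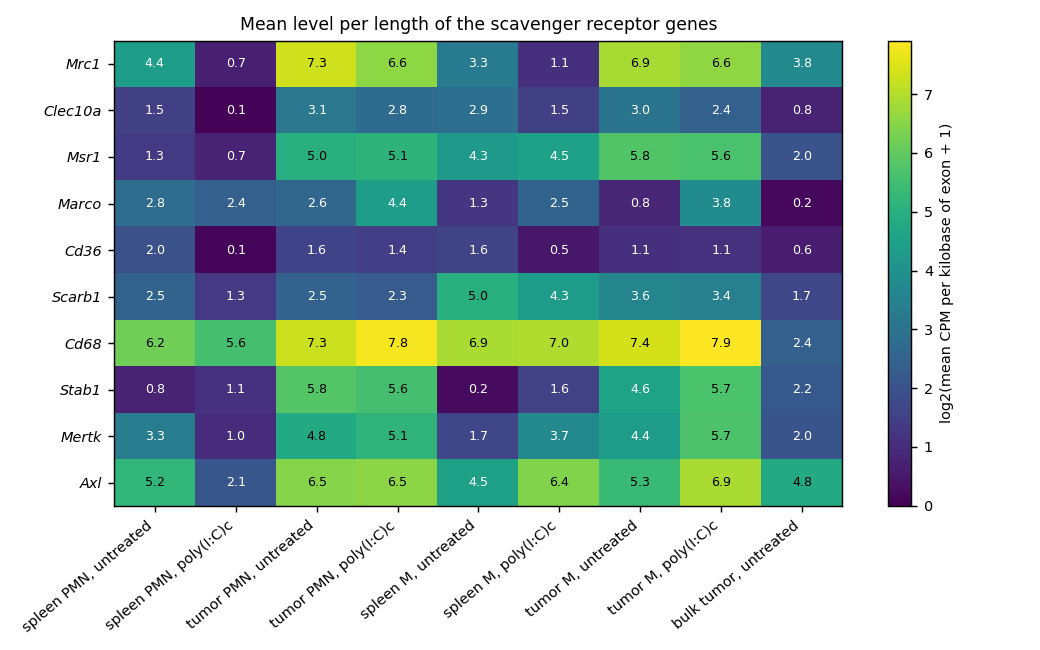
Mean level of each scavenger receptor gene in each group as log2(mean CPM per kilobase of exon + 1), in rows by gene and columns by group. Mrc1 and Cd68 are brightest in untreated tumor PMN-MDSC (159 and 155 CPM per kilobase), Cd68 is brightest in both poly(I:C)c tumor columns, Stab1 is darkest in untreated spleen M-MDSC, and Cd36 is low in every column.

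The first comparison asked what poly(I:C)c did to these genes in each of the 4 sorted populations. Treatment went with lower Mrc1, Mertk and Axl in spleen PMN-MDSC, and with lower Mrc1, Clec10a and Scarb1 but higher Stab1, Mertk and Axl in spleen M-MDSC. In tumor MDSC Marco was the member that passed edgeR's test, and it was higher in both populations. Tests were edgeR's quasi-likelihood test with Benjamini-Hochberg adjustment over all genes whose count averaged 25 or more in the libraries of a comparison, called at an adjusted p under 0.05. In spleen PMN-MDSC 5 members were tested, 0 were called higher and 3 lower, where 6.1% of all 7261 genes tested were called higher and 5.52% lower. In spleen M-MDSC 8 were tested, 3 called higher and 3 lower, against 9.96% and 9.48% of 8827 genes. In tumor PMN-MDSC 9 were tested, 1 called higher and 0 lower, against 2.29% and 1.07% of 8308 genes, with 3 of the 9 at an unadjusted p under 0.05 and 2 called by DESeq2. Of all 8308 genes 1508 were at that p, and DESeq2 called 369 higher and 244 lower. In tumor M-MDSC 9 were tested, 1 called higher and 0 lower, against 1.82% and 1.06% of 8360 genes, with 4 at an unadjusted p under 0.05 and 3 called by DESeq2. Of all 8360 genes 1606 were at that p, and DESeq2 called 449 higher and 348 lower. A member that is high in 1 group alone can pass the count minimum only where it differs. This held for Mrc1, Scarb1 and Mertk in spleen PMN-MDSC, for Mrc1, Clec10a and Stab1 in spleen M-MDSC and for Marco in both tumor populations. The median log2 fold change of the tested members was -3.21 in spleen PMN-MDSC against 0.01 over all genes, and 0.11 in spleen M-MDSC against -0.03, where members moved in both directions. With so many members tested through 1 group alone, these counts and medians are a description and no support for the set.

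**Figure D3:**
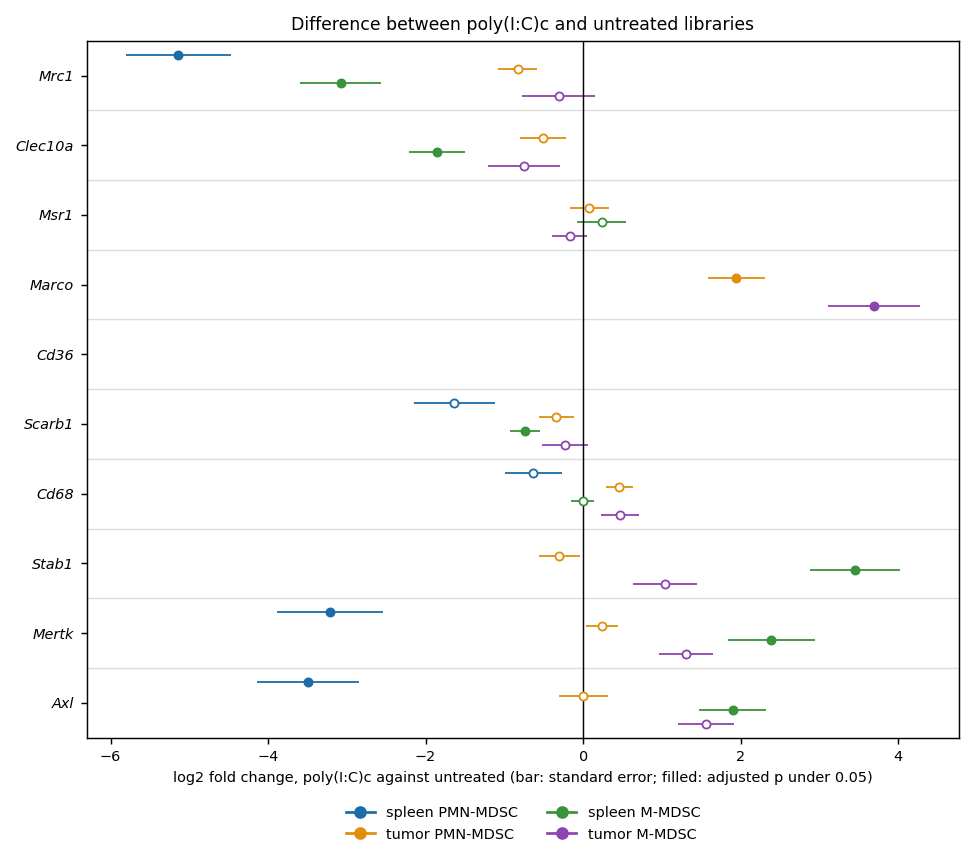
Log2 fold change of poly(I:C)c against untreated for each gene in the 4 sorted populations, with bars of 1 standard error and filled points where the adjusted p is under 0.05. A gene with no point in a population was below the count minimum there. Mertk and Axl lie left of 0 in spleen PMN-MDSC (-3.21 and -3.49) and right of 0 in spleen M-MDSC (2.39 and 1.90), and Marco lies right of 0 in both tumor populations.

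Marker sums moved along with treatment in both organs, and their part in the results was not tested. In spleen PMN-MDSC the sum over the 10 macrophage markers ranged from 870 to 2102 CPM in untreated and from 391 to 576 CPM in poly(I:C)c libraries, where Vsig4 was at 0 and the other 9 had counts. The 6 red pulp macrophage markers summed to 1007 to 1576 CPM and 569 to 1132 CPM, and the 7 dendritic cell markers to 295 to 446 CPM and 12.02 to 89.2 CPM, with Flt3 and Xcr1 at 0 after treatment. Of the red pulp markers, Vcam1 (111 to 370 and 8.02 to 27.3 CPM) and Spic (18.2 to 56.5 and 8.27 to 14.7 CPM) were apart and lower after treatment. The 5 endothelial markers summed to 38.0 to 97.4 CPM and 13.2 to 23.4 CPM. The 7 neutrophil markers went the other way, from 13156 to 25539 CPM up to 32744 to 37678 CPM. In spleen M-MDSC the macrophage sum was 1962 to 2347 CPM in untreated and 1375 to 2239 CPM in poly(I:C)c libraries, with Vsig4 at 0 in both. There the red pulp sum was 205 to 323 CPM against 501 to 919 CPM, the endothelial sum 24.4 to 30.97 CPM against 118 to 278 CPM, and the monocyte sum 5093 to 7706 CPM against 2582 to 3861 CPM. In the tumor populations the macrophage sums overlapped between treatments (9714 to 13904 and 8719 to 19170 CPM in PMN-MDSC, 4675 to 9642 and 6738 to 28837 CPM in M-MDSC), while the monocyte sums did not, at 4208 to 8047 and 1363 to 2730 CPM in PMN-MDSC and 8609 to 12043 and 2373 to 4539 CPM in M-MDSC. The red pulp sums did not overlap in the tumor either, at 545 to 712 CPM untreated and 847 to 1364 CPM treated in PMN-MDSC and 274 to 431 and 849 to 1540 CPM in M-MDSC. Within the macrophage list C1qa was apart, at 486 to 612 and 747 to 1346 CPM in PMN-MDSC. In M-MDSC it was 128 to 330 and 368 to 2101 CPM. Apoe, Adgre1 and Csf1r of that list overlapped in both. Ly6c2 of the monocyte list rose in PMN-MDSC, from 1.85 to 11.2 CPM to 67.1 to 273 CPM, and overlapped in M-MDSC. Ccr2 was lower in both without overlap. In tumor M-MDSC the endothelial sum was 20.8 to 44.9 CPM untreated and 72.5 to 155 CPM treated, and the dendritic cell sum 103 to 129.5 and 149.9 to 612 CPM. The erythroid sum was 57.2 to 154 CPM untreated and 0 to 4.96 CPM treated in spleen PMN-MDSC and 18.7 to 50.8 and 0.629 to 2.75 CPM in spleen M-MDSC. The T cell sum in spleen PMN-MDSC (12.2 to 19.3 and 1.503 to 5.44 CPM) and the platelet sum in tumor PMN-MDSC (37.9 to 65.6 and 68.9 to 135.5 CPM) were apart as well.

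Mrc1 encodes the macrophage mannose receptor, a C-type lectin that clears mannose-bearing glycoproteins. In untreated spleen PMN-MDSC its 4 libraries read 257, 92.5, 69.9 and 107 CPM, and in poly(I:C)c libraries 6.62, 2.18 and 3.01 CPM. The lowest untreated library thus lay more than 10-fold above the highest treated one, and the fitted level was 35.2-fold lower after treatment (log2 fold change -5.14, SE 0.663, adjusted p = 0.00368). Without untreated library 1, which stood apart in macrophage markers, the change was -4.57 (adjusted p = 0.00402). In spleen M-MDSC Mrc1 read 67.7, 37.8, 71.6 and 46.6 CPM in untreated and 6.14, 1.92, 4.40 and 16.3 CPM in poly(I:C)c libraries. The groups were again apart, with an 8.45-fold lower level after treatment (-3.08, SE 0.516, adjusted p = 0.00381). In tumor PMN-MDSC the untreated libraries held 1227, 847, 1085 and 891 CPM and the treated ones 858, 652, 475 and 409 CPM. These overlapped between 847 and 858 CPM, and the change of -0.83 did not pass the test (adjusted p = 0.107), although it did without poly(I:C)c library 1 (-1.05, adjusted p = 0.0397) and with DESeq2 (adjusted p = 0.0187). In tumor M-MDSC untreated libraries held 955, 433, 842 and 719 CPM and treated ones 259, 1126 and 461 CPM. The highest of these was poly(I:C)c library 2, and the change was -0.31 with it (adjusted p = 0.775) and -1.05 without it (adjusted p = 0.137).

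The Mrc1 difference between tumor and spleen was called in all 4 populations. It amounted to 8.26-fold in untreated PMN-MDSC (3.05, SE 0.385, adjusted p = 9.72e-05; 3.59 and adjusted p = 1.91e-06 without spleen library 1) and 13.5-fold in untreated M-MDSC (3.76, SE 0.280, adjusted p = 1.94e-06). After poly(I:C)c it was 165-fold in PMN-MDSC (7.37, adjusted p = 8.82e-05) and 88.9-fold in M-MDSC (6.47, adjusted p = 0.00373), or 5.72 on the log2 scale in the latter without poly(I:C)c tumor library 2 (adjusted p = 0.00584). The treatment change itself differed between tumor and spleen in PMN-MDSC, by 4.31 on the log2 scale (SE 0.642, adjusted p = 0.00675). In M-MDSC that difference was 2.77 (95% interval 1.29 to 4.25) and was not called (adjusted p = 0.109), though it was without poly(I:C)c tumor library 1 (3.13, adjusted p = 0.0317) or spleen library 4 (3.55, adjusted p = 0.0322) and by DESeq2 (adjusted p = 0.0153). Without poly(I:C)c tumor library 2 it was 2.02 (adjusted p = 0.285). Mrc1 was lower in M-MDSC than in PMN-MDSC of untreated spleen (-1.20, SE 0.405, adjusted p = 0.0248). The groups overlapped, and the call was lost without M-MDSC library 2 (adjusted p = 0.0692) or 4 (adjusted p = 0.0833), while without PMN-MDSC library 1 the difference was -0.64 (adjusted p = 0.0429). With library totals in place of TMM it was not called either (-0.85, adjusted p = 0.103). Across the 9 groups mean levels ran from 1012 CPM ± 177 (SD, n = 4) in untreated tumor PMN-MDSC through 80.3 CPM ± 16.04 in bulk tumor to 3.93 CPM ± 2.36 (SD, n = 3) in poly(I:C)c spleen PMN-MDSC. Neighbours in the order that did not differ beyond their spread were the 4 tumor MDSC groups, the chain from untreated spleen PMN-MDSC through bulk tumor to untreated spleen M-MDSC, and the 2 treated spleen groups.

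Clec10a encodes MGL1, a C-type lectin for galactose and N-acetylgalactosamine. It was far lower than Mrc1 per kilobase in the tumor, at 7.78 against 159 in untreated PMN-MDSC. In untreated spleen M-MDSC it read 25.2, 23.2, 9.74 and 16.3 CPM, and after poly(I:C)c 4.69, 7.97, 4.72 and 3.57 CPM. The groups did not overlap and the level fell 3.61-fold (-1.85, SE 0.355, adjusted p = 0.00573). In spleen PMN-MDSC the untreated libraries held 47, 7, 5 and 4 counts and the treated ones 0, 1 and 0 counts, which was below the count minimum. Of the 63 untreated counts there, 47 came from library 1. In the tumor Clec10a was not called for treatment, at 16.6 to 26.8 CPM against 10.9 to 26.3 CPM in PMN-MDSC (-0.51, adjusted p = 0.384) and 11.3 to 32.7 CPM against 6.52 to 18.1 CPM in M-MDSC (-0.75, adjusted p = 0.416). It was 4.35-fold higher in tumor than in spleen PMN-MDSC of untreated mice (2.12, SE 0.549, adjusted p = 0.00693) and 68.4-fold higher in poly(I:C)c mice (6.10, SE 0.773, adjusted p = 0.000428), the latter fold resting on 1 count in the spleen. Without untreated spleen library 1 the former was 3.33 on the log2 scale (adjusted p = 3.50e-05). Untreated M-MDSC of tumor and spleen differed by 0.19 (95% interval -0.55 to 0.92, adjusted p = 0.750). In untreated spleen Clec10a was higher in M-MDSC than in PMN-MDSC (1.76, SE 0.601, adjusted p = 0.0266). That call was lost without M-MDSC library 1 (adjusted p = 0.0664) or 2 (0.0604) and without PMN-MDSC library 2 (0.0566), 3 (0.0630) or 4 (0.0615), while without PMN-MDSC library 1 the difference was 2.99 (adjusted p = 0.000475).

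Msr1 encodes the class A scavenger receptor SR-A, a trimeric receptor for acetylated and oxidized low-density lipoprotein. It was called for treatment in none of the 3 populations in which it was tested, by edgeR or DESeq2, and 0 of the 3 had an unadjusted p under 0.05. Spleen M-MDSC held 95.1, 141, 113 and 109 CPM untreated and 135, 100, 250 and 79.8 CPM after poly(I:C)c, with overlapping groups (0.24, 95% interval -0.37 to 0.85, adjusted p = 0.631). Tumor PMN-MDSC held 157 to 217 CPM and 141 to 285 CPM (0.08, 95% interval -0.41 to 0.56), and tumor M-MDSC 252 to 400 CPM and 262 to 361 CPM (-0.17, 95% interval -0.61 to 0.27). Spleen PMN-MDSC held 21.5, 5.47, 7.38 and 4.73 CPM untreated and 6.62, 3.26 and 3.01 CPM treated, below the count minimum. Msr1 was higher in M-MDSC than in PMN-MDSC of the spleen, by 11.4-fold untreated (3.51, SE 0.423, adjusted p = 9.37e-05; 4.31 and adjusted p = 9.48e-07 without PMN-MDSC library 1) and 34.8-fold after poly(I:C)c (5.12, SE 0.560, adjusted p = 0.000192). In untreated tumor the same difference was 1.68-fold (0.74, SE 0.174, adjusted p = 0.0137), and it was lost without PMN-MDSC library 4 (0.66, adjusted p = 0.0542) and in 1 fit over all groups (adjusted p = 0.149). Tumor exceeded spleen by 20.0-fold in untreated PMN-MDSC (4.32, SE 0.421, adjusted p = 2.31e-05; 5.12 and adjusted p = 3.23e-07 without spleen library 1), 52.8-fold in poly(I:C)c PMN-MDSC (5.72, adjusted p = 0.000131) and 3.03-fold in untreated M-MDSC (1.60, adjusted p = 3.18e-05). The value in poly(I:C)c M-MDSC was 1.16 and not called by edgeR (adjusted p = 0.112), but it was by DESeq2 (adjusted p = 0.0311), in 1 fit over all groups (adjusted p = 0.0225) and without spleen library 3 (1.59, adjusted p = 0.0239). Without the tumor library that stood apart, poly(I:C)c library 2, it was 1.17 (adjusted p = 0.225).

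Marco encodes the second class A receptor, which binds bacteria and particles and is known from macrophages of the splenic marginal zone and the lung. It was the sole member called for treatment in the tumor by edgeR. Untreated tumor PMN-MDSC held 6.80, 5.70, 20.4 and 6.00 CPM and poly(I:C)c tumor PMN-MDSC 31.6, 40.2, 47.1 and 40.7 CPM. The groups were apart and Marco rose 3.85-fold (1.94, SE 0.362, adjusted p = 0.0146). The call was lost without untreated library 1 (adjusted p = 0.0580), 2 (0.0556) or 4 (0.0555), with changes of 1.77 to 1.82. Untreated tumor M-MDSC held 1.13, 1.95, 3.02 and 0 CPM and poly(I:C)c tumor M-MDSC 11.4, 37.8 and 26.5 CPM. Here too no treated library fell into the untreated range, and the rise was 12.9-fold (3.69, SE 0.584, adjusted p = 0.0169), from 16 untreated counts in all. That call was lost without untreated library 1 (0.0636), 2 (0.0518) or 3 (0.0586) or poly(I:C)c library 3 (0.0629), with changes of 3.52 to 4.33. Without poly(I:C)c library 2 Marco fell below the count minimum and was not tested.

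In spleen PMN-MDSC Marco showed no such pattern, with 13.3, 12.2, 6.599 and 15.3 CPM untreated and 10.8, 5.98 and 8.52 CPM after poly(I:C)c. The treatment change differed between tumor and spleen PMN-MDSC by 2.48 (SE 0.568, adjusted p = 0.0267). The call of that difference was lost without tumor library 2 or 4 of the untreated group (adjusted p = 0.0520 and 0.0526), tumor library 2 of the poly(I:C)c group (0.0532) and spleen library 2 or 3 of the poly(I:C)c group (0.0659 and 0.0826), and with at least 10 counts required in every library (0.0539). Spleen M-MDSC held 2.21, 4.06, 2.09 and 2.41 CPM untreated and 4.33, 7.14, 6.29 and 18.7 CPM treated. These groups did not overlap but lay below the count minimum, and with no minimum the change was 1.72 (adjusted p = 0.00370). Tumor and spleen PMN-MDSC overlapped when untreated (-0.17, 95% interval -1.02 to 0.68) and were 4.94-fold apart after poly(I:C)c (2.30, SE 0.299, adjusted p = 0.000462). Tumor against spleen came to 1.51 in poly(I:C)c M-MDSC and was not called (adjusted p = 0.159), but it was in 1 fit over all groups (1.48, adjusted p = 0.0151), and it came to 2.12 without spleen library 4 (adjusted p = 0.0479). Without poly(I:C)c tumor library 2 it was 1.10 (adjusted p = 0.424). In bulk tumor Marco had 1, 1, 3 and 2 counts, at or below the floor of 3 counts.

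Of the class B receptors, Cd36, which takes up long-chain fatty acids and oxidized lipoprotein, was the least abundant member per kilobase in 4 of the 9 groups, and Scarb1 encodes SR-B1, the receptor for high-density lipoprotein. Cd36 passed the count minimum in 1 of 18 comparisons and was called in 0 of them. Its level in spleen PMN-MDSC was 14.1, 8.52, 8.15 and 11.3 CPM untreated, and 0, 0 and 2 counts were found after poly(I:C)c. Untreated and treated libraries were apart, with a ratio of 27.8 and a 95% counting interval of 7.53 to 233. In spleen M-MDSC Cd36 was 5.75, 4.88, 9.74 and 9.84 CPM untreated and 0.361, 0.550, 1.57 and 3.57 CPM treated, again without overlap. With no count minimum the change there was -2.39 (adjusted p = 0.000380). In the tumor the treated libraries lay within or around the untreated range, at 4.80 to 10.4 and 2.29 to 11.2 CPM in PMN-MDSC and 1.13 to 7.34 and 3.26 to 4.84 CPM in M-MDSC.

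Scarb1 followed a pattern of its own, highest in spleen M-MDSC and not in the tumor. Untreated spleen M-MDSC held 242, 290, 250 and 258 CPM and poly(I:C)c spleen M-MDSC 147, 203, 193 and 106 CPM. The groups did not overlap and the level fell 1.67-fold (-0.74, SE 0.189, adjusted p = 0.0222). The adjusted p rose above the threshold without any 1 of the 4 untreated libraries (0.0513, 0.0554, 0.0665 and 0.0650) and without poly(I:C)c library 1 (0.0612), while the change stayed between -0.68 and -0.76 in these fits. In 1 fit over all groups it was -0.70 (adjusted p = 0.0943). In spleen PMN-MDSC Scarb1 held 59.6, 43.2, 27.6 and 28.4 CPM untreated and 8.27, 5.98 and 23.5 CPM treated. The groups were apart, but the change of -1.63 was not called (adjusted p = 0.0763); it was without poly(I:C)c library 3 (-2.49, adjusted p = 0.0374) and by DESeq2 (-1.65, adjusted p = 0.0161). Without untreated library 1 it was -1.36 (adjusted p = 0.168). Tumor PMN-MDSC (-0.34, adjusted p = 0.453) and tumor M-MDSC (-0.23, adjusted p = 0.716; 0.038 without poly(I:C)c library 2) had overlapping groups.

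Scarb1 was the tested member called lower in tumor than in spleen M-MDSC, at 94.4 CPM ± 20.6 against 260 CPM ± 21.1 (SD, n = 4 each) in untreated mice (-1.41, SE 0.155, adjusted p = 3.48e-05). After poly(I:C)c the value was -0.94 and not called by edgeR (adjusted p = 0.140) or DESeq2 (adjusted p = 0.0560), but it was in 1 fit over all groups (-0.98, adjusted p = 0.0270). Untreated PMN-MDSC of tumor and spleen differed by 0.08 (95% interval -0.45 to 0.61), or by 0.36 without spleen library 1 (adjusted p = 0.206). Tumor PMN-MDSC of poly(I:C)c mice exceeded those of spleen (1.41, SE 0.459, adjusted p = 0.0288). There the groups overlapped, and the call was lost without spleen library 1 (0.0734) or 2 (0.0930) or tumor library 1 (0.0675) or 2 (0.0599). M-MDSC held more Scarb1 than PMN-MDSC in untreated spleen (6.73-fold; 2.75, SE 0.252, adjusted p = 1.88e-05), in poly(I:C)c spleen (12.9-fold; 3.69, SE 0.475, adjusted p = 0.000372) and in untreated tumor (2.28-fold; 1.19, SE 0.190, adjusted p = 0.00140). In poly(I:C)c tumor the groups did not overlap either, but 1.30 was not called by edgeR (adjusted p = 0.203) and was by DESeq2 (adjusted p = 0.0186).

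Cd68, the gene of macrosialin, a lysosomal and endosomal glycoprotein widely used as a macrophage stain, showed no called treatment change. It was called in none of the 4 populations by edgeR, with 1 at an unadjusted p under 0.05 and 0 called by DESeq2. Spleen M-MDSC held 154, 168, 121 and 152 CPM untreated and 130, 152, 189 and 148 CPM treated (-0.01, 95% interval -0.30 to 0.29). Tumor PMN-MDSC held 216, 161, 217 and 188 CPM untreated and 323, 322, 227 and 254 CPM treated. These groups did not overlap, and the change of 0.46 was not called (adjusted p = 0.183). Tumor exceeded spleen in all 4 populations, by 2.28-fold in untreated PMN-MDSC (1.19, SE 0.251, adjusted p = 0.00228), 4.94-fold in poly(I:C)c PMN-MDSC (2.31, adjusted p = 0.000507), 1.46-fold in untreated M-MDSC (0.55, adjusted p = 0.0396) and 1.98-fold in poly(I:C)c M-MDSC (0.99, adjusted p = 0.0302). In untreated M-MDSC 6 of the 8 omissions of a library ended the call (spleen library 1, 3 or 4 and tumor library 1, 2 or 3, adjusted p = 0.0725 to 0.141), as did library totals (0.29, adjusted p = 0.225), at least 10 counts in every library (0.49, adjusted p = 0.0673) and 1 fit over all groups (0.53, adjusted p = 0.130). In poly(I:C)c M-MDSC 5 of 7 did (spleen library 1, 2 or 4 and tumor library 2 or 3, adjusted p = 0.0590 to 0.115). Spleen M-MDSC exceeded spleen PMN-MDSC, by 1.68-fold untreated (0.75, SE 0.236, adjusted p = 0.0191) and 2.65-fold after poly(I:C)c (1.403, SE 0.294, adjusted p = 0.00376), the former lost without M-MDSC library 1 (0.0551) or PMN-MDSC library 4 (0.0702).

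Stab1 encodes stabilin-1, a large endocytic receptor of macrophages and sinusoidal endothelium. Its folds between tumor and spleen of untreated mice were the largest among the members tested. Untreated spleen M-MDSC held 2.21, 1.63, 2.43 and 1.004 CPM and untreated tumor M-MDSC 175, 219, 326 and 237 CPM, a 141-fold difference (7.14, SE 0.294, adjusted p = 2.34e-08). Untreated spleen PMN-MDSC held 8.47, 9.12, 5.05 and 8.0 CPM and tumor PMN-MDSC 613, 415, 599 and 607 CPM, a 78.3-fold difference (6.29, SE 0.260, adjusted p = 3.54e-07). After poly(I:C)c tumor and spleen were 39.99-fold apart in PMN-MDSC (5.32, SE 0.424, adjusted p = 0.000127) and 25.6-fold in M-MDSC (4.68, SE 0.655, adjusted p = 0.00675), the latter 3.95 on the log2 scale without tumor library 2 (adjusted p = 0.00992). In spleen M-MDSC the treated libraries read 11.9, 7.69, 23.6 and 37.7 CPM. All 4 lay above the untreated range, a 10.9-fold rise (3.45, SE 0.577, adjusted p = 0.00332) from 21 to 231 counts in all. In spleen PMN-MDSC Stab1 was below the count minimum, at 5.05 to 9.12 CPM untreated and 9.79 to 17.03 CPM treated.

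The Stab1 change in spleen M-MDSC exceeded that in spleen PMN-MDSC by 2.67 (SE 0.712, adjusted p = 0.0282). The call of this difference was lost without untreated PMN-MDSC library 1 (2.60, adjusted p = 0.0509), poly(I:C)c PMN-MDSC library 2 (2.54, 0.0598) and untreated M-MDSC library 2 (2.65, 0.0535) or 4 (2.41, 0.0651). Tumor PMN-MDSC showed 618, 627, 378 and 282 CPM after treatment, overlapping the untreated range, and no call (-0.30, adjusted p = 0.593). Tumor M-MDSC showed 271, 919 and 337 CPM, with 919 CPM in the library that stood apart. The change there was 1.04 (adjusted p = 0.203) with that library and 0.32 without it (adjusted p = 0.564). In untreated tumor Stab1 was 2.46-fold lower in M-MDSC than in PMN-MDSC (-1.30, SE 0.196, adjusted p = 0.00102).

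Mertk and Axl encode receptor tyrosine kinases of the TAM family, through which macrophages engulf apoptotic cells and which restrain innate immune signalling. Both moved in opposite directions in the 2 splenic populations. In spleen PMN-MDSC Mertk read 82.7, 29.2, 19.8 and 25.5 CPM untreated and 5.79, 2.18 and 5.01 CPM after poly(I:C)c. It fell 9.27-fold without overlap (-3.21, SE 0.670, adjusted p = 0.0202). The call held without untreated library 1 (-2.53, adjusted p = 0.0177) and was lost without poly(I:C)c library 2 (0.0629) or 3 (0.0711). Axl read 360, 144, 94.7 and 134 CPM untreated and 28.9, 13.1 and 8.02 CPM treated in the same cells. It fell 11.2-fold without overlap (-3.49, SE 0.645, adjusted p = 0.0137), or by 2.92 on the log2 scale without untreated library 1 (adjusted p = 0.0190).

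In spleen M-MDSC the same genes were higher after treatment. Mertk read 12.4, 6.50, 8.35 and 11.05 CPM untreated and 27.1, 18.4, 62.3 and 104 CPM treated. It rose 5.24-fold with no overlap (2.39, SE 0.557, adjusted p = 0.0180), a call that was lost without untreated library 3 (2.35, adjusted p = 0.0520) and with no count minimum (2.41, adjusted p = 0.0880). Axl read 129, 66.7, 111 and 124 CPM untreated and 378, 729, 420 and 150 CPM treated. It rose 3.73-fold with no overlap (1.90, SE 0.425, adjusted p = 0.0142), a call that was lost with no count minimum (1.94, adjusted p = 0.0857). The treatment change in M-MDSC exceeded that in PMN-MDSC of the spleen by 5.56 for Mertk (SE 0.934, adjusted p = 0.00360) and by 5.34 for Axl (SE 0.799, adjusted p = 0.00204), and by 4.85 (adjusted p = 0.00435) and 4.76 (adjusted p = 0.00278) without untreated PMN-MDSC library 1. These tests share the splenic libraries with the single comparisons above.

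In tumor M-MDSC the treatment changes of Mertk and Axl did not pass the test. Mertk held 72.1, 66.4, 93.0 and 111 CPM untreated and 110, 310 and 237 CPM treated (1.31, adjusted p = 0.0714), and Axl 119, 236, 262 and 166 CPM and 448, 938 and 412 CPM (1.56, adjusted p = 0.0513). The Axl groups did not overlap, and the Mertk groups overlapped narrowly, at 110 and 111 CPM. Both were called by DESeq2 (adjusted p = 0.00907 and 0.00115) and without poly(I:C)c library 1 (1.67, adjusted p = 0.0112 for Mertk and 1.77, adjusted p = 0.0352 for Axl). Without the library that stood apart, poly(I:C)c library 2, the values were 1.001 (adjusted p = 0.134) and 1.10 (adjusted p = 0.0655). In tumor PMN-MDSC neither changed detectably, at 0.24 for Mertk (95% interval -0.17 to 0.65) and 0.00 for Axl (95% interval -0.61 to 0.61). The treatment change in tumor PMN-MDSC exceeded that in spleen PMN-MDSC by 3.47 for Mertk (SE 0.635, adjusted p = 0.0108) and 3.496 for Axl (SE 0.698, adjusted p = 0.0155), the latter lost without poly(I:C)c spleen library 3 (3.10, adjusted p = 0.0592).

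Between tumor and spleen, Mertk was higher in tumor by 3.21-fold in untreated PMN-MDSC (1.68, SE 0.409, adjusted p = 0.00494; 2.37 and adjusted p = 1.71e-05 without spleen library 1), 35.9-fold in poly(I:C)c PMN-MDSC (5.17, adjusted p = 0.000104) and 9.04-fold in untreated M-MDSC (3.18, SE 0.242, adjusted p = 1.94e-06). After poly(I:C)c the M-MDSC value was 2.07 and not called by edgeR (adjusted p = 0.0891), but it was by DESeq2 (adjusted p = 0.00767), in 1 fit over all groups (adjusted p = 0.00111) and without spleen library 4 (2.64, adjusted p = 0.0422). It was 1.75 without tumor library 2 (adjusted p = 0.268). Axl was higher in tumor by 2.57-fold in untreated PMN-MDSC (1.36, adjusted p = 0.00812), 29.2-fold in poly(I:C)c PMN-MDSC (4.87, adjusted p = 0.000452) and 1.88-fold in untreated M-MDSC (0.91, adjusted p = 0.0215). The Axl groups of poly(I:C)c M-MDSC overlapped and the value was 0.54 (95% interval -0.44 to 1.53, adjusted p = 0.552), or 0.066 without tumor library 2 (adjusted p = 0.971). The call in untreated M-MDSC was lost without tumor library 2 (0.0604), 3 (0.0733) or 4 (0.0521), with library totals (0.66, adjusted p = 0.0810) and in 1 fit over all groups (0.89, adjusted p = 0.131). The Axl value in untreated PMN-MDSC was 1.92 without spleen library 1 (adjusted p = 3.47e-05). M-MDSC of untreated spleen held less Mertk than PMN-MDSC (4.03-fold; -2.01, SE 0.471, adjusted p = 0.00430; -1.31 and adjusted p = 0.00128 without PMN-MDSC library 1). After poly(I:C)c the order was the other way round, with M-MDSC 12.6-fold higher in Mertk (3.66, SE 0.739, adjusted p = 0.00323) and 26.1-fold higher in Axl (4.70, SE 0.681, adjusted p = 0.000677). In untreated spleen Axl did not pass the test (-0.73, adjusted p = 0.129), but it did without PMN-MDSC library 3 (-0.98, adjusted p = 0.0434). Without PMN-MDSC library 1, which stood apart, the value was -0.16 (adjusted p = 0.564). In untreated tumor M-MDSC held 2.36-fold less Axl than PMN-MDSC (-1.24, SE 0.221, adjusted p = 0.00299), which was not called in 1 fit over all groups (adjusted p = 0.0590), and Mertk (-0.56, adjusted p = 0.103) was called only without M-MDSC library 4 (-0.72, adjusted p = 0.0224).

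**Figure D4:**
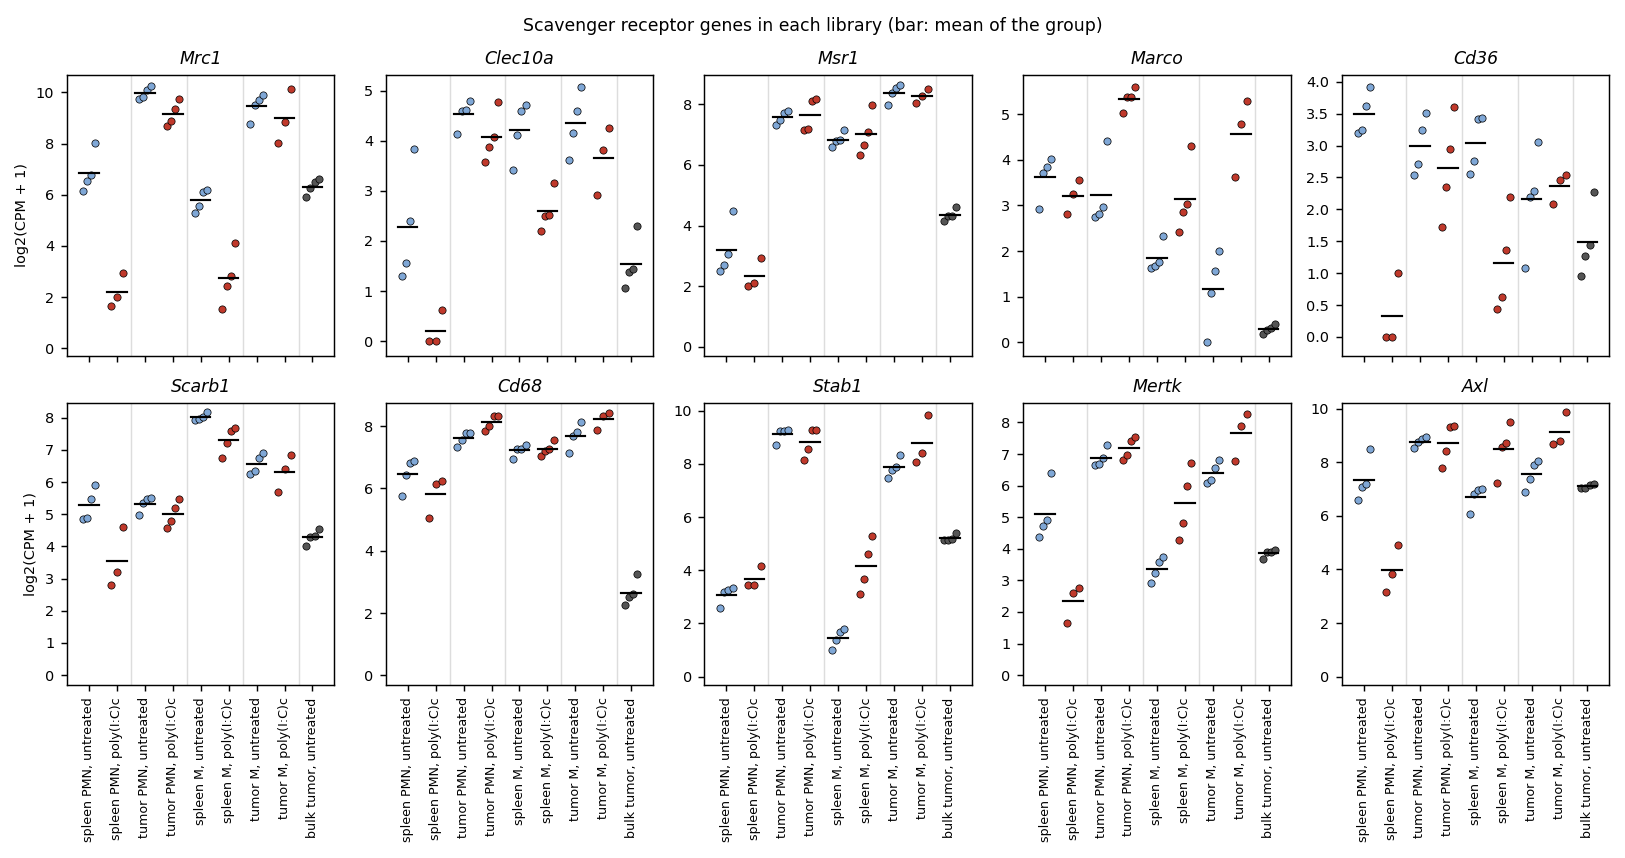
Level of each of the 10 scavenger receptor genes in each library, as log2(CPM + 1), with a bar at the group mean; blue is untreated, red poly(I:C)c and grey bulk tumor, and the vertical scale differs by gene. Mrc1 and Stab1 are high in all tumor MDSC groups, the treated spleen PMN-MDSC points of Mrc1, Mertk and Axl lie below all untreated ones, and Scarb1 is highest in spleen M-MDSC.

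Read across members, the second question was how tumor-derived MDSC differ from splenic ones. In untreated PMN-MDSC 9 members were tested, 7 were called higher in tumor and 0 lower, where 29.4% of 7971 genes were called higher and 29.7% lower. In poly(I:C)c PMN-MDSC all 9 tested were called higher, against 28.2% higher and 25.4% lower of 8031 genes. In untreated M-MDSC 8 were tested, with 6 higher and 1 (Scarb1) lower, against 15.7% and 12.7% of 8298 genes. In poly(I:C)c M-MDSC 9 were tested, with 3 higher and 0 lower, against 5.2% and 0.776% of 9026 genes, 8 of the 9 at an unadjusted p under 0.05 and 5 called by DESeq2. Of all 9026 genes 2110 were at that p, and DESeq2 called 812 higher and 320 lower. Members past the count minimum in 1 of the 2 groups alone numbered 3, 7, 1 and 2 in these comparisons, and such a member had to differ to be tested. The counts called and the medians are therefore a description and no support for the set, above all in poly(I:C)c PMN-MDSC. The median log2 fold change of the tested members was 1.68, 5.17, 1.25 and 1.28, against 0.01, 0.04, 0.02 and -0.01 over all genes. The larger value in poly(I:C)c PMN-MDSC came with spleen libraries in which Mrc1, Mertk and Axl were low, as given above, and each treated comparison shares its libraries with the treatment comparisons. The macrophage marker sum moved with all 4 comparisons, from 870 to 2102 CPM in untreated spleen to 9714 to 13904 CPM in untreated tumor PMN-MDSC and from 1962 to 2347 CPM to 4675 to 9642 CPM in untreated M-MDSC. The neutrophil sum of untreated PMN-MDSC was 13156 to 25539 CPM in spleen and 928 to 3089 CPM in tumor. In the same cells the monocyte sum was 765 to 2203 CPM in spleen and 4208 to 8047 CPM in tumor, while the red pulp sum went the other way, from 1007 to 1576 CPM in spleen to 545 to 712 CPM in tumor. Ly6c2 of the monocyte list was also lower in tumor, at 43.2 to 114 CPM in spleen and 1.85 to 11.2 CPM in tumor. The epithelial sum in untreated PMN-MDSC was 0 to 1.82 CPM in spleen and 89.5 to 576 CPM in tumor. In untreated M-MDSC the monocyte sum was 5093 to 7706 CPM in spleen and 8609 to 12043 CPM in tumor, and the neutrophil sum 1281 to 2262 and 179 to 444 CPM. After treatment the macrophage sum of PMN-MDSC was 391 to 576 CPM in spleen and 8719 to 19170 CPM in tumor, the neutrophil sum 32744 to 37678 and 2657 to 10017 CPM, and the dendritic cell sum 12.02 to 89.2 and 109 to 331 CPM. The macrophage sum of treated M-MDSC was 1375 to 2239 CPM in spleen and 6738 to 28837 CPM in tumor. The part of these sums in the members' differences was not tested.

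**Figure D5:**
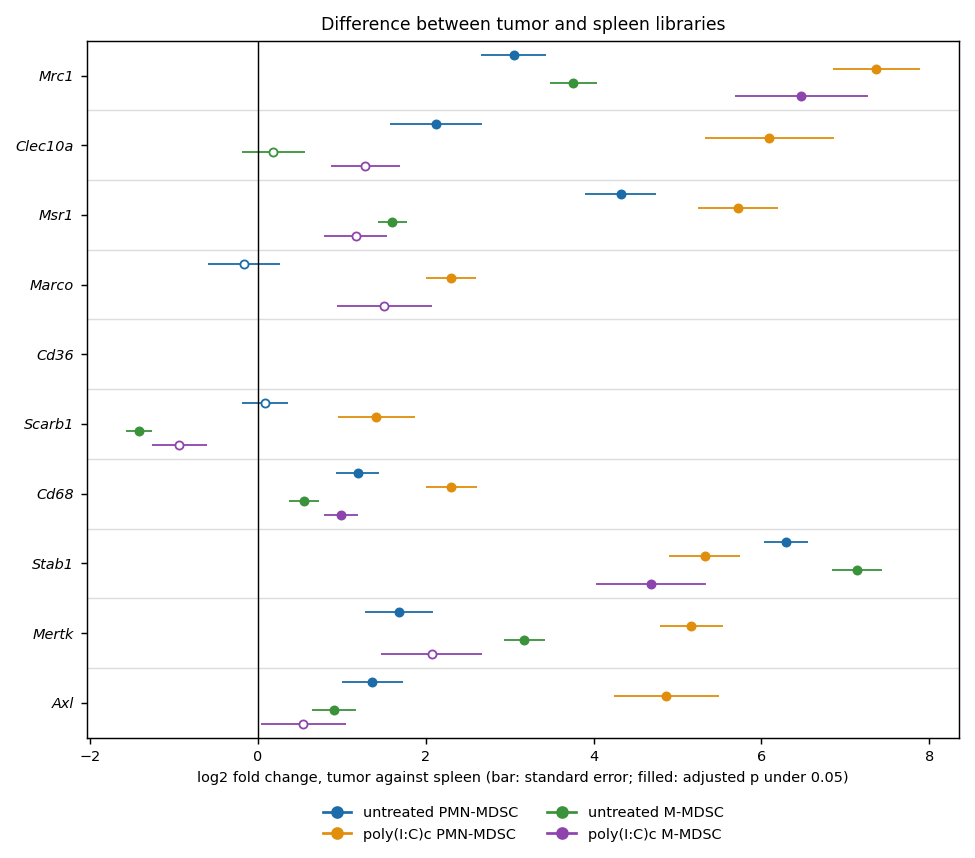
Log2 fold change of tumor against spleen for each gene in untreated and poly(I:C)c PMN-MDSC and M-MDSC, with bars of 1 standard error and filled points where the adjusted p is under 0.05. A gene with no point was below the count minimum. Most points lie right of 0, Stab1 lies farthest right in untreated M-MDSC (7.14), and Scarb1 lies left of 0 in M-MDSC.

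The third question was how the 2 cell types differ within an organ. In untreated spleen 8 members were tested, 4 were called higher in M-MDSC (Clec10a, Msr1, Scarb1 and Cd68) and 2 lower (Mrc1 and Mertk), against 33.4% and 30.9% of 8579 genes. After poly(I:C)c 6 were tested in the spleen, with 5 higher (Msr1, Scarb1, Cd68, Mertk and Axl) and 0 lower, against 32.4% and 28.8% of 8153 genes. In untreated tumor 8 were tested, with 2 higher (Msr1 and Scarb1) and 2 lower (Stab1 and Axl), against 5.73% and 7.25% of 7623 genes. In poly(I:C)c tumor 9 were tested and 0 called in either direction by edgeR, with 1 at an unadjusted p under 0.05 and 1, Scarb1, called by DESeq2. Over all 8955 genes of that comparison 0% were called higher and 0.369% lower by edgeR, and 1139 were at an unadjusted p under 0.05. DESeq2 called 15 of them higher and 287 lower. Members past the count minimum in 1 of the 2 groups alone numbered 1 in untreated spleen (Clec10a), 4 in poly(I:C)c spleen (Msr1, Scarb1, Stab1 and Mertk) and 0 in both tumor comparisons. The same limit holds here, so the spleen counts are no support for the set. In untreated spleen the red pulp sum was 1007 to 1576 CPM in PMN-MDSC and 205 to 323 CPM in M-MDSC, and the dendritic cell sum 295 to 446 and 41.5 to 146 CPM. In untreated tumor the macrophage sum was 9714 to 13904 CPM in PMN-MDSC and 4675 to 9642 CPM in M-MDSC, and the dendritic cell sum 322 to 389 and 103 to 129.5 CPM. These sums were apart in the same direction as the members called lower there. In untreated spleen the monocyte sum went the other way, at 765 to 2203 CPM in PMN-MDSC and 5093 to 7706 CPM in M-MDSC. The neutrophil sum there was 13156 to 25539 and 1281 to 2262 CPM. In untreated tumor the monocyte sum was 4208 to 8047 CPM in PMN-MDSC and 8609 to 12043 CPM in M-MDSC. The part of these sums was not tested. In poly(I:C)c spleen the macrophage sum was 391 to 576 CPM in PMN-MDSC and 1375 to 2239 CPM in M-MDSC. The endothelial sum there was 13.2 to 23.4 and 118 to 278 CPM. The neutrophil sum went the other way, at 32744 to 37678 and 593 to 2133 CPM. The tumor PMN-MDSC libraries of the poly(I:C)c tumor comparison held 8719 to 19170 CPM of macrophage markers and the M-MDSC libraries 6738 to 28837 CPM, with overlapping ranges. The part of the sums after poly(I:C)c was not tested either.

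The treatment changes were then compared with each other. Between tumor and spleen PMN-MDSC 9 members were tested, and the treatment change of 4 (Mrc1, Marco, Mertk and Axl) was higher in tumor. Over all 8047 genes 3.17% were called higher and 0.336% lower. With treatment itself Mrc1, Mertk and Axl were called lower in spleen and not called in tumor, where Marco was called higher. Without untreated spleen library 1 the same 4 were called, at 3.80, 2.43, 2.82 and 2.97. Between tumor and spleen M-MDSC 0 of 9 were called, against 0.229% and 0.561% of 8730 genes. There 3 members were at an unadjusted p under 0.05, and DESeq2 called 2, Mrc1 (2.71, adjusted p = 0.0153) and Stab1 (-2.45, adjusted p = 0.0377). Of all 8730 genes 1238 were at that unadjusted p, and DESeq2 called 108 higher and 199 lower. Without poly(I:C)c tumor library 2 the Stab1 value was -3.15 by edgeR (adjusted p = 0.0703). Between M-MDSC and PMN-MDSC 7 were tested in the spleen, and the treatment change of 3 (Stab1, Mertk and Axl) was higher in M-MDSC. Over all 8417 genes 6.45% were called higher and 4.41% lower. In the tumor 0 of 9 were called, against 0.0239% and 0% of 8385 genes, with 4 at an unadjusted p under 0.05 and 0 called by DESeq2. Of all genes there 720 were at that p, and DESeq2 called 10 higher and 12 lower. A member low in some groups can pass the count minimum through the others, so these counts are no support for the set.

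Bulk tumor was set against sorted cells of untreated tumors as a reference for the whole tissue. All 8 members tested were lower in bulk tumor than in tumor PMN-MDSC, where 36.9% of 11138 genes were called higher and 32.8% lower. All 7 tested were lower than in tumor M-MDSC, against 38.2% and 31% of 11022 genes. Clec10a passed the count minimum through PMN-MDSC alone in the former. Cd68 differed most, with 3.78, 4.70, 5.05 and 8.46 CPM in bulk tumor, 41.5-fold below PMN-MDSC (-5.38, SE 0.260, adjusted p = 1.42e-08) and 41.6-fold below M-MDSC (-5.38, SE 0.315, adjusted p = 7.35e-08). Axl, with 142, 132, 146 and 132 CPM in bulk tumor, differed least from M-MDSC, and Scarb1 differed least from PMN-MDSC (2.52-fold; -1.34, SE 0.185, adjusted p = 5.22e-05). Axl was 3.80-fold below PMN-MDSC (-1.93, SE 0.151, adjusted p = 4.62e-07) and 1.58-fold below M-MDSC (-0.66, SE 0.238, adjusted p = 0.0269). Bulk and M-MDSC libraries overlapped for Axl, and the call was lost without tumor M-MDSC library 2 (-0.44, adjusted p = 0.128) or 3 (-0.42, adjusted p = 0.135) or without any 1 bulk library (0.0523 to 0.0836), with library totals (-0.47, adjusted p = 0.0870), no count minimum (-0.48, adjusted p = 0.0593) or at least 10 counts in every library (-0.26, adjusted p = 0.312), and in 1 fit over all groups (-0.67, adjusted p = 0.145). The other members lay from 10.4-fold (Mertk) to 18.3-fold (Stab1) below PMN-MDSC and from 5.63-fold (Scarb1) to 18.9-fold (Msr1) below M-MDSC. Bulk tumor libraries held 3710 to 5519 CPM over 4 epithelial markers and 776 to 1112 CPM over 5 fibroblast markers, against at most 576 and 45.6 CPM in untreated tumor PMN-MDSC. The macrophage sum was 807 to 1318 CPM in bulk tumor, against 9714 to 13904 CPM in tumor PMN-MDSC and 4675 to 9642 CPM in tumor M-MDSC, and its part in the members' differences was not tested.

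Other receptors of the same kind and the partners of these receptors were described from 2 fixed lists. Of 31 other scavenger and apoptotic-cell receptors, 19 were tested for treatment in spleen PMN-MDSC, with 2 higher and 6 lower, against 6.1% and 5.52% of all genes, and a median log2 fold change of -0.67 against 0.01 over all genes. Those with the smallest adjusted p were Stab2, the hyaluronan receptor stabilin-2 (-4.62, adjusted p = 0.00446), Cd163, the hemoglobin-haptoglobin receptor (-5.36, adjusted p = 0.00453), and Clec4n, which encodes Dectin-2 (-3.51, adjusted p = 0.00557). In spleen M-MDSC 15 were tested, with 2 higher and 3 lower, against 9.96% and 9.48% of all genes. Siglec1, the sialoadhesin gene and an interferon-responsive macrophage receptor, rose there (2.46, adjusted p = 0.000458), as did Cd300lf (0.73, adjusted p = 0.0168), a receptor for phosphatidylserine, and Lrp1, a large endocytic receptor, fell (-0.96, adjusted p = 0.00716). Siglec1 was also the 1 receptor of 16 tested that was higher in treated tumor PMN-MDSC (1.60, adjusted p = 0.00755), where 2.29% of all genes were called higher. In tumor M-MDSC 2 of 15 were higher, against 1.82% of all genes, Siglec1 (1.98, adjusted p = 0.00904) and Havcr2, which encodes Tim-3 (0.95, adjusted p = 0.0369). Siglec1, Stab2, Cd5l and Vsig4 of this list are also on the marker lists used above.

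Of the 20 bridging molecules, lipid-handling partners and regulators, 15 were tested in spleen PMN-MDSC, with 1 higher and 4 lower after treatment, against 6.1% and 5.52% of all genes. Among them fell Apoe, the lipoprotein component (-2.28, adjusted p = 0.0228), and Irf4, a transcription factor of alternatively activated macrophages and dendritic cells (-3.53, adjusted p = 0.0233). In spleen M-MDSC 4 of 17 were higher and 2 lower, against 9.96% and 9.48% of all genes. There Nr1h3, the gene of the oxysterol receptor LXR-alpha, rose (2.97, adjusted p = 3.02e-05), whereas Pros1, which encodes protein S, the bridge to Mertk, fell (-2.17, adjusted p = 0.00229), and so did Apoe (-2.06, adjusted p = 0.00349). Nr1h3 rose in tumor PMN-MDSC as well (2.34, adjusted p = 0.00111), with 2 of 18 partners higher in all against 2.29% of all genes, the other being Plin2, a lipid droplet protein (1.48, adjusted p = 0.0363), and 1 lower against 1.07% of all genes, Irf4 (-2.86, adjusted p = 0.00424). In tumor M-MDSC 2 of 18 were higher, against 1.82% of all genes, Nr1h3 (3.62, adjusted p = 0.00428) and the cholesterol exporter gene Abcg1 (1.11, adjusted p = 0.0305). Gas6, the other bridge to Mertk and Axl, lay at 44.6 CPM ± 14.7 in untreated tumor PMN-MDSC and 10.9 CPM ± 7.54 in untreated tumor M-MDSC (SD, n = 4 each) and was lower in the latter (-2.21, adjusted p = 0.00506). Apoe is on the macrophage marker list and Spic is on the red pulp list.

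Across the 30 sorted libraries, the genes whose log2(CPM + 1) followed each member most closely were ranked among 8536 genes by Pearson correlation, as a description over libraries that share organs, cell types and treatments. The closest to Mrc1 were Rnf150 (0.951), Fcgrt (0.947) and Plxdc2 (0.943), to Clec10a Pkd2 (0.910) and Nfatc2 (0.907), and to Msr1 Ctsc (0.973), Lrpap1 (0.972) and Renbp (0.961). For Stab1 they were Odc1 (0.971), Abca1 (0.960) and Il1a (0.960), for Mertk Dst (0.960), Fblim1 (0.937) and the complement gene C1qb (0.928), and for Axl Lap3 (0.931), Arhgap22 (0.928) and Frmd4b (0.927). Scarb1 ran with Elmo2 (0.970), Snrpb (0.952) and Zfyve9 (0.941), and Cd68 with Adap2 (0.907), Commd10 (0.906) and Luzp1 (0.906). Marco and Cd36 had looser neighbours, Ftl2-ps (0.839), Il18bp (0.801) and Cxcl13 (0.790) for Marco and Abhd4 (0.773), Cd163 (0.755) and Usp48 (0.750) for Cd36. The correlation with the summed macrophage markers was 0.774 to 0.874 for Cd68, Mertk, Mrc1, Stab1, Msr1, Axl and Clec10a, and 0.374, 0.306 and 0.102 for Cd36, Marco and Scarb1. Within the set, Mertk and Stab1 were the most alike pair (0.850), and Scarb1 and Marco the least (-0.434).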

How the data were processed

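RNA was sequenced from sorted MDSC of tumor and spleen and from bulk tumor. Per the labels, the submitters' processing notes and the study's methods, the authors mapped reads with ContextMap, which used BWA inside, and counted them per gene with featureCounts (Subread 1.4.6-p3), and the deposited table holds raw read counts per gene with no normalization. Columns were assigned to groups by name, and they carry only a running number that no label ties to a mouse. Libraries were not paired, so p-values measure the spread between libraries. One library with 10 counts was left out and 34 were used. Gene names came from GENCODE M21 (53274 of 53379 genes matched). Within groups 0 of 48 library pairs held identical counts.

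Genes whose count averaged 25 or more in the libraries of a comparison were tested with edgeR 4.0.16 (R 4.3.3; TMM scaling, robust quasi-likelihood F-test, Benjamini-Hochberg adjustment over all genes tested, adjusted p under 0.05). Intervals are 95% and intervals on counts cover counting error only. The code was tested on simulated data. Alternatives were DESeq2 1.42.0, RLE scaling, library totals, no count minimum, at least 10 counts in every library, 1 fit over all groups, an adjusted p under 0.001 with a 2-fold change, and leaving out each library. Leaving out the 2 libraries that stood apart as a separate alternative was chosen after seeing the data. The text names the 10 members, up to 3 called genes per list and comparison with the smallest adjusted p, and the 3 genes most like each member; Gas6 levels, marker genes and Spic, Cd5l and Vsig4 as list overlaps are given beside them. A few items under this rule are not reported here. Members and lists were chosen with earlier results of these data known.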

Additional observations from a re-analysis of the deposited data

Results flagged for a closer look

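In 5 of 70 sets of a gene and a group, 1 library stood apart from the rest by Dixon's criterion, and chance flags about 1 in 20 such sets. In untreated spleen PMN-MDSC these were Msr1 at 21.5 CPM and Mertk at 82.7 CPM, both in library 1, the library highest in macrophage markers. Marco was high in 1 library each of untreated tumor PMN-MDSC (20.4 CPM) and untreated spleen M-MDSC (4.06 CPM). Stab1 was low in 1 untreated tumor PMN-MDSC library (415 CPM).

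The treatment change differed between tumor and spleen PMN-MDSC for Mrc1 by 4.31, for Marco by 2.48, for Mertk by 3.47 and for Axl by 3.496 on the log2 scale, each past the edgeR test of the difference. Between M-MDSC and PMN-MDSC of the spleen it differed for Stab1 by 2.67, for Mertk by 5.56 and for Axl by 5.34. Between treatments the macrophage marker sums were apart in spleen PMN-MDSC and overlapped in spleen M-MDSC, the red pulp sums overlapped in spleen PMN-MDSC and were apart in spleen M-MDSC, and the endothelial sums were apart in both. Vcam1 and Spic of the red pulp list went otherwise than the sum, being apart in spleen PMN-MDSC and overlapping in spleen M-MDSC. In tumor PMN-MDSC the red pulp sum went from 545 to 712 CPM untreated to 847 to 1364 CPM treated. The part of any of these in the differences was not tested.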

How the results depend on the processing

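No paired analysis was possible by label because the count table's columns carry only a running number, with no replicate number from the labels. The running numbers follow the order of the labelled samples, so a pairing could be read from that order. Such a pairing was not made, and its effect on the comparisons was not tested. The labels' titles repeat replicate numbers across organs and cell types within a treatment, so libraries compared may share a mouse, and they were treated as independent. Depth limits Cd36 in all groups, Marco in spleen M-MDSC, untreated tumor M-MDSC and bulk tumor, and Clec10a in spleen PMN-MDSC. Of the member results, RLE scaling left 143 on the same side of the threshold and in the same direction and DESeq2 134. With 1 library left out at a time, 1220 kept both, 59 lost the call, 12 gained one and 53 changed sign. The cause of the changes below was not tested, except that a count minimum changes which members are tested.

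Counts of called members moved as follows. With at least 10 counts in every library they were 1 for treatment in spleen PMN-MDSC, 3 in spleen M-MDSC and 2 in tumor M-MDSC, 5 for tumor against spleen in poly(I:C)c PMN-MDSC, 3 for cell type in poly(I:C)c spleen, and 1 each for the PMN-MDSC and spleen differences of treatment change. All genes called higher and lower for treatment were 364 and 233 of 6715, 892 and 690 of 8986, and 181 and 97 of 6853. Tumor against spleen had 1647 and 1501 of 6688 and cell type 2002 and 1794 of 6617. The differences had 30 and 3 of 6226 and 335 and 155 of 6312. With no minimum they were 6 for treatment in spleen PMN-MDSC, 2 in tumor PMN-MDSC, 4 in tumor M-MDSC, 7 for tumor against spleen in poly(I:C)c M-MDSC, 1 for cell type in poly(I:C)c tumor, and 3, 6 and 2 for the M-MDSC, spleen and tumor differences. At the stricter threshold the member counts were 0 in all 4 treatment comparisons, 3 for tumor against spleen in untreated PMN-MDSC, 0 in poly(I:C)c M-MDSC, 2, 3 and 0 for cell type in untreated spleen, poly(I:C)c spleen and untreated tumor, and 0 for the PMN-MDSC and spleen differences. All genes at that threshold numbered 3, 20, 220 and 1 for treatment in spleen PMN-MDSC, tumor PMN-MDSC, spleen M-MDSC and tumor M-MDSC. For tumor against spleen they numbered 1727 and 14, for cell type 1993, 1728 and 126, and for the differences 0 and 10. DESeq2 gave 2 and 3 members for treatment in tumor PMN-MDSC and M-MDSC, 5 for tumor against spleen in poly(I:C)c M-MDSC, 1 for cell type in poly(I:C)c tumor and 2 for the M-MDSC difference. All genes it called higher and lower were 369 and 244 of 8308, 449 and 348 of 8360, and 812 and 320 of 9026. For cell type and the M-MDSC difference they were 15 and 287 of 8955 and 108 and 199 of 8730. The fit over all groups gave 3, 7, 2, 1 and 2 members for treatment in tumor M-MDSC, tumor against spleen in poly(I:C)c M-MDSC, cell type in untreated and poly(I:C)c tumor and the M-MDSC difference. All genes it called higher and lower were 503 and 306 of 8360, 874 and 537 of 9026, and 225 and 415 of 7623. For poly(I:C)c tumor and the M-MDSC difference they were 55 and 412 of 8955 and 56 and 89 of 8730. Library totals gave 2 members for treatment in tumor M-MDSC, where 220 of 8360 genes were called higher and 85 lower. Leaving out the library apart gave 0 members there. With 1 library left out the member counts ranged from 0 to 2 for treatment in tumor PMN-MDSC, 0 to 3 in tumor M-MDSC, 2 to 5 and 0 to 1 for the PMN-MDSC and M-MDSC differences. Calls over all genes were not counted in the fits with a library left out.

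Library totals moved the median of all genes by over 0.1, to the values given, in treatment of spleen PMN-MDSC (-0.28, with 285 genes higher and 860 lower against 443 and 401), tumor against spleen in poly(I:C)c PMN-MDSC (0.46; 3105 and 1152 against 2267 and 2039) and untreated M-MDSC (-0.24; 895 and 2157 against 1302 and 1055), cell type in untreated spleen (0.45; 4045 and 1781 against 2868 and 2655) and poly(I:C)c spleen (0.67; 3801 and 1345 against 2641 and 2346), the PMN-MDSC difference (0.403; 548 and 13 against 255 and 27), the spleen difference (0.28; 1024 and 147 against 543 and 371), and the M-MDSC difference (0.17; 28 and 29 against 20 and 49). It did so too for tumor against spleen in untreated PMN-MDSC (0.13; 2579 and 2068 against 2346 and 2368), cell type in poly(I:C)c tumor (0.16), and bulk tumor against PMN-MDSC (0.38; 4959 and 3037 against 4115 and 3652) and M-MDSC (0.36). The split also moved in treatment of tumor PMN-MDSC (224 and 58 against 190 and 89) and the tumor difference (0 and 0 against 2 and 0).

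Changes of sign touched no called value. For treatment they were Axl in tumor PMN-MDSC (DESeq2 -0.00302, RLE -0.0026) and Cd68 in spleen M-MDSC (DESeq2 0.020, RLE 0.019, at least 10 counts 0.023, all groups 0.034, no minimum 0.023). For tumor against spleen they were Scarb1 in untreated PMN-MDSC (no minimum -0.0022) and Clec10a in untreated M-MDSC (totals -0.073). For cell type they were Cd68 in untreated tumor (at least 10 counts -0.0024) and Mrc1 in poly(I:C)c tumor (all groups 0.030, totals 0.073, no minimum 0.017), and for the tumor difference Cd68 (DESeq2 -0.012, RLE -0.0086, no minimum -0.027). With 1 library left out, values spanned 0 for treatment in tumor PMN-MDSC (Axl -0.21 to 0.23, Msr1 -0.10 to 0.23), spleen M-MDSC (Cd68 -0.11 to 0.076, Msr1 -0.18 to 0.47) and tumor M-MDSC (Mrc1 -1.05 to 0.10, Scarb1 -0.50 to 0.038). For tumor against spleen they spanned 0 in untreated PMN-MDSC (Marco -0.39 to 0.021, Scarb1 -0.083 to 0.36) and M-MDSC (Clec10a -0.17 to 0.46). For cell type they did in untreated tumor (Cd68 -0.11 to 0.16, Clec10a -0.54 to 0.056) and poly(I:C)c tumor (Axl -0.14 to 0.54, Cd68 -0.083 to 0.17, Mrc1 -0.77 to 0.32, Stab1 -0.68 to 0.31). The M-MDSC difference (Axl -0.80 to 0.064, Msr1 -0.59 to 0.027) and the tumor difference (Cd68 -0.12 to 0.15, Clec10a -0.58 to 0.062, Mrc1 -0.22 to 0.88, Scarb1 -0.19 to 0.39) also had values spanning 0.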
